A study of Mus musculus with 4 samples.

Results

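Mitochondrial ribosomal proteins were followed in mouse kidney through all probe sets whose only annotated gene symbol begins with Mrpl or Mrps and a digit. The rule took 156 of the 45037 probe sets of the array and 76 of the 18193 genes that have a probe set of their own. The rule uses gene symbols and no measured value, but it was chosen with earlier results of these data known. Of the 76 genes, 49 encode proteins of the large subunit and 26 proteins of the small subunit of the mitochondrial ribosome. The remaining gene, Mrps36, was first counted with the small subunit, and its product is now known as a component of the alpha-ketoglutarate dehydrogenase complex. Mrpl30 and Mrpl53 were found only on probe sets that list several symbols, so neither was included.

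Mitochondria make a small set of inner-membrane proteins of the respiratory chain and ATP synthase on their own ribosomes. The RNA of these ribosomes comes from mitochondrial DNA, whereas every protein of them is encoded in the nucleus, made in the cytosol and imported. Some of these proteins have counterparts in bacterial ribosomes and others exist only in mitochondria. Proximal tubule cells of the kidney are rich in mitochondria and depend on respiration for solute transport.

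Kidney RNA was compared in 4 groups of male C57Bl/6 mice. They were Tet2KO mice after ischemia-reperfusion (IR), Tet2KO mice after sham surgery, wild-type mice after IR and wild-type mice after sham surgery. IR was 60 min of renal ischemia and 24 h of reperfusion. Each group was measured on 1 Affymetrix 3' expression array with RNA pooled from 3 mice. There was therefore 1 value per group and no spread between mice, so no test between groups was made, and having so few arrays limits how precise each value is. Tet2 encodes a dioxygenase that oxidises methylated cytosine in DNA, and the labels give neither the deleted part of the gene nor the cells in which it was deleted.

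The label was checked against Tet2 itself. The 2 Tet2 probe sets differed between the Tet2KO and wild-type sham arrays by -0.09 and 0.41 in log2 ratio, and between the IR arrays by -0.41 and -0.70. Tet2 signal was thus not lower in the sham array labelled Tet2KO, and the groups are called knockout-labelled below. The defining markers of the tissue were present: all 8 proximal tubule markers lay over the floor in every array. This floor, a log2 signal of 5.72, is the 40th percentile of the pooled signals, and lower values were set to it.

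All 76 genes were well measured. Each was read from its probe set with the highest mean signal, and every such signal in every array lay over the floor, the lowest being a log2 signal of 7.86. Their mean log2 signals over the arrays lay between 8.21 and 12.1 with a median of 10.5. Of the 156 probe sets, 135 were at or over the floor in all 4 arrays, 6 in some and 15 in none. A single probe set stood for 34 genes and 42 genes had 2 or more, with 8 at most.

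As a group the mitochondrial ribosomal protein genes differed little between the arrays. The median gene spanned 0.31 log2 units from its lowest to its highest array. Over the 7226 genes with a mean signal at or over that of the dimmest member the median span was 0.53. The lowest of the 4 signals lay in the knockout-labelled IR array for 38 members, in the knockout-labelled sham array for 6, in the wild-type IR array for 8 and in the wild-type sham array for 24. For all genes measured the knockout-labelled IR array held the lowest signal in 38.7% and the knockout-labelled sham array in 17.3%. The wild-type IR array held it in 18.4% and the wild-type sham array in 25.6%. The 5 steadiest members were Mrpl38, Mrpl3, Mrpl11, Mrps9 and Mrpl41. Mrpl38 had log2 signals of 10.14 in knockout-labelled IR, 10.18 in knockout-labelled sham, 10.08 in wild-type IR and 10.13 in wild-type sham. On another probe set of Mrpl38, with lower signal, IR over sham was 0.62 in the knockout-labelled pair and 0.45 in the wild-type pair, so the steadiness held for the probe set read. The same holds for Mrpl3, whose other probe sets over the floor in all arrays gave -0.53 and -0.71 in the knockout-labelled pair. In that pair the other probe sets of Mrps9 gave 0.57, 0.23 and 0.11.

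**Figure D1:**
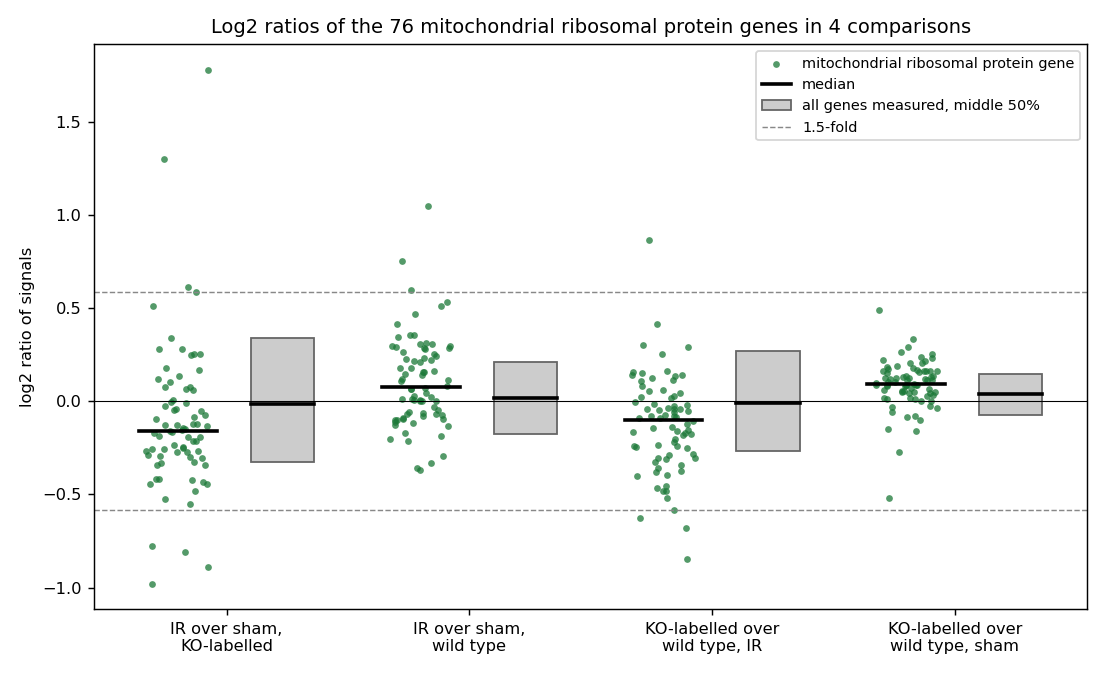
Log2 ratios of the 76 mitochondrial ribosomal protein genes (green points) in 4 comparisons of single arrays, with their median (black line) beside the middle 50% and median of all genes measured (grey box). Dashed lines mark 1.5-fold. Most points lie inside the 1.5-fold lines in each comparison, and the members' medians are -0.16, 0.08, -0.10 and 0.09 from left to right; the second was -0.03 with the arrays centred on cytosolic ribosomal protein genes.

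The question of the first comparison was how these genes stood 1 day after injury in knockout-labelled kidneys. IR over sham had a median log2 ratio of -0.16, with quartiles of -0.30 and 0.06, and 55 of 76 members were lower and 21 higher. The median over all genes measured was -0.02, and 48.2% of them were higher, against 27.6% of the members. Set against the wild-type sham array instead, the members' median was -0.04, with 3 higher and 4 lower by 1.5-fold, so its size depended on the sham array. At 1.5-fold or more 4 members were higher and 4 lower, that is 10.5% of the members. Of all genes measured 29.1% passed, 14.6% higher and 14.5% lower, and of the 7226 genes of similar signal 35.6% passed. The count depended on the scaling between arrays: centred on the cytosolic ribosomal protein genes, the median was -0.52, and 2 members stood higher and 30 lower. The same centring moved the median of all genes measured to -0.34. The share of all genes past 1.5-fold was not counted with it, so the shares above are no measure for these counts. At 2-fold or more 2 members were higher and 0 lower, against 12.9% of all genes.

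In wild-type kidneys IR over sham had a median log2 ratio of 0.08, with quartiles of -0.07 and 0.27, and 50 of 76 members were higher and 26 lower. The sign of this median changed, to -0.03, when the arrays were centred on the cytosolic ribosomal protein genes. The median over all genes measured was 0.02, and 52.5% of them were higher, against 65.8% of the members. At 1.5-fold or more 3 members were higher and 0 lower, that is 3.95% of the members. Of all genes measured 12.3% passed, 5.98% higher and 6.29% lower. At 2-fold or more 1 member was higher, against 4.24% of all genes. With single arrays the 1.5-fold limit can be set beside a technical measure: log2 ratios of IR over sham from different probe sets of the same member had an SD of 0.32 in the knockout-labelled pair and of 0.17 in the wild-type pair. Differences between mice are not part of that SD.

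Mrps18b and Mrpl33 had the highest ratios of IR over sham in both genotype pairs. Mrps18b is a protein of the small subunit and belongs to a family of 3 in mammals that descends from a single bacterial protein. Its log2 signals were 11.20 in knockout-labelled IR, 9.91 in knockout-labelled sham, 10.79 in wild-type IR and 9.74 in wild-type sham. Both IR arrays lay above both sham arrays, and IR over sham was 2.46-fold in the knockout-labelled pair and 2.06-fold in the wild-type pair. The gene had 1 probe set, so no other reading of it was at hand. The other members of the family did not reach a difference of this size. Mrps18a, a protein of the large subunit, had log2 ratios of -0.05 in the knockout-labelled pair and -0.06 in the wild-type pair. Mrps18c, of the small subunit, had 0.28 and 0.31 in the same order. Its IR arrays also lay above both sham arrays, by less than those of Mrps18b.

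Mrpl33 is a large-subunit protein with a bacterial counterpart. Its log2 signals were 11.55 in knockout-labelled IR, 9.77 in knockout-labelled sham, 10.69 in wild-type IR and 9.93 in wild-type sham. Both IR arrays again lay above both sham arrays, and IR over sham was 3.43-fold in the knockout-labelled pair and 1.69-fold in the wild-type pair. The other probe set of Mrpl33 lay below the floor. The promoters of these 2 genes are shown because the genes led in both pairs. The windows are from RefSeq on GRCm38.p6 and run from 250 bases before to 50 bases after the annotated start, 5′ to 3′ on the gene's strand. Mrps18b lies at chr17:35916391-35916690 on the minus strand and Mrpl33 at chr5:31613701-31614000 on the plus strand. Capitals mark the letters of the GABP motif CCGGAAG on either strand (CTTCCGG is its reverse complement) and, in Mrpl33, also CCAAT.
Mrps18b: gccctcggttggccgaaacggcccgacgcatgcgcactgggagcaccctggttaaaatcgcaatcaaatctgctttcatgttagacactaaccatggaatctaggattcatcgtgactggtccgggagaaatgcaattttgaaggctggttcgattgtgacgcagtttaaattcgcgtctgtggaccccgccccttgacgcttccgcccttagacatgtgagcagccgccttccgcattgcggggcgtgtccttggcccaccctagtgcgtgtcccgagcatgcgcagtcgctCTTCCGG
Mrpl33: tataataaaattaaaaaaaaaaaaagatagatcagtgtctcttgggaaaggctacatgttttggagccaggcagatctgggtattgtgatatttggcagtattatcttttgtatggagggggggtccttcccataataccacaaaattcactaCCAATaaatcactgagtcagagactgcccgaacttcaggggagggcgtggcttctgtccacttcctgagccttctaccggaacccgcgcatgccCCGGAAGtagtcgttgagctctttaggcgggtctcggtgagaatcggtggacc

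Mrpl52 and Mrps6 were the other members past 1.5-fold and higher after IR in the knockout-labelled pair. Mrpl52, a large-subunit protein found only in mitochondria, had log2 signals of 11.43 in knockout-labelled IR, 10.81 in knockout-labelled sham, 11.29 in wild-type IR and 10.76 in wild-type sham. Its IR over sham was 0.61 in the knockout-labelled pair and 0.53 in the wild-type pair, just outside and just inside 1.5-fold. Other probe sets of Mrpl52 over the floor gave 0.86 and 0.93 in the knockout-labelled pair and 0.57 and 0.59 in the wild-type pair. Mrps6, a small-subunit protein with a bacterial counterpart, had 11.87 in knockout-labelled IR, 11.28 in knockout-labelled sham, 11.71 in wild-type IR and 11.80 in wild-type sham. Here the knockout-labelled sham array stood below the other 3. The knockout-labelled IR array differed from the wild-type sham array by only 0.07, and the other probe set of Mrps6 gave 0.08 for IR over sham in the knockout-labelled pair. Mrpl47, a large-subunit protein with a bacterial counterpart, was past 1.5-fold in the wild-type pair only, with log2 signals of 10.24, 10.16, 10.58 and 9.98 in knockout-labelled IR, knockout-labelled sham, wild-type IR and wild-type sham. Its other probe sets lay near or below the floor, and the median over all of them gave -0.04 in place of 0.60 for the wild-type pair. Mrps10, named after its values were seen, was 1.42-fold higher after IR in the knockout-labelled pair and 1.43-fold in the wild-type pair.

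**Figure D2:**
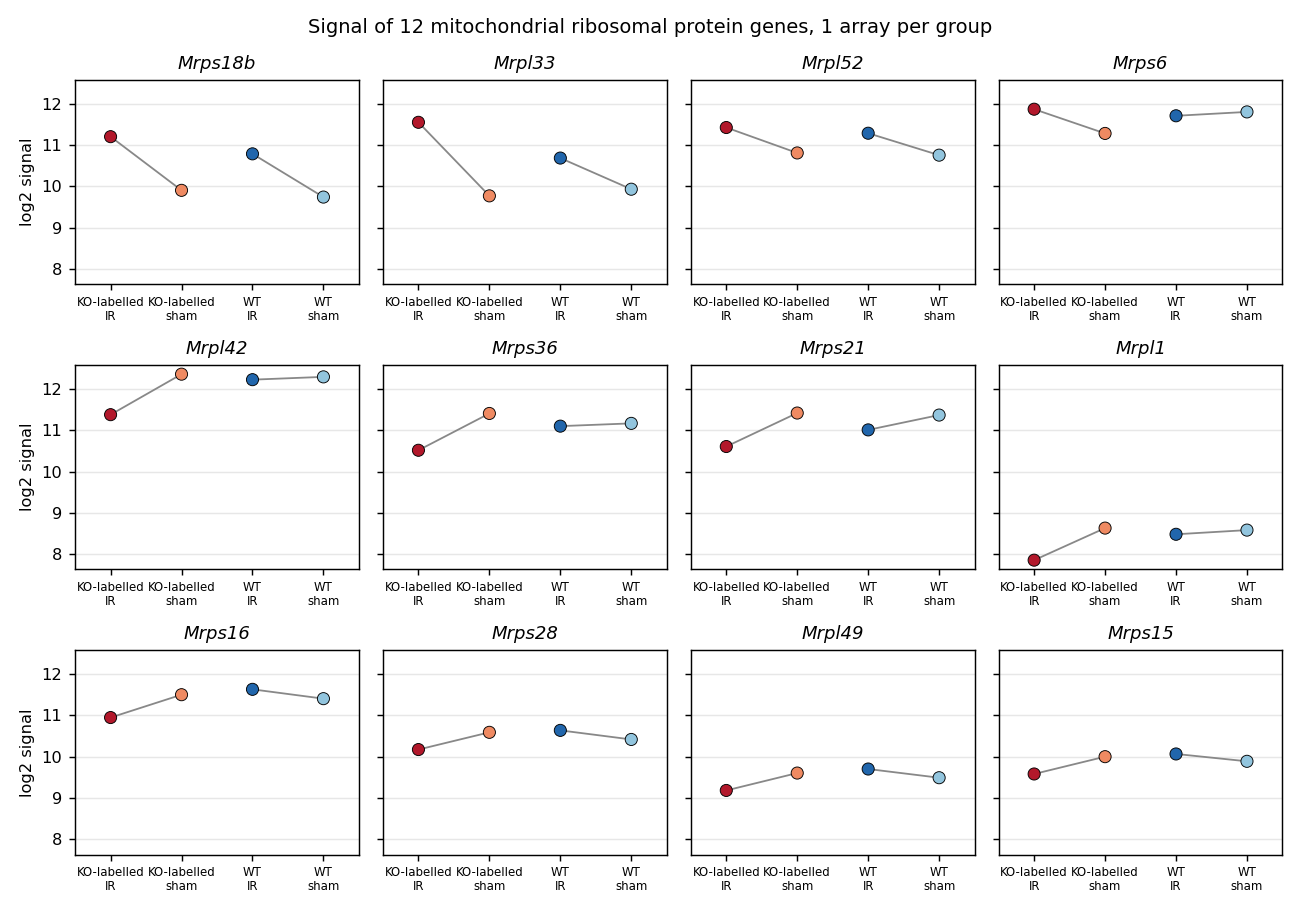
Log2 signal (vertical axis, not starting at 0) of 12 mitochondrial ribosomal protein genes in the 4 arrays, 1 point per array and lines joining IR with sham of the same genotype. Mrps18b and Mrpl33 are higher in both IR arrays, Mrpl42, Mrps36 and Mrpl1 stand lowest in the knockout-labelled IR array alone, and Mrps16, Mrps28, Mrpl49 and Mrps15 are lower after IR in the knockout-labelled pair and higher in the wild-type pair.

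The 4 members lower by 1.5-fold or more after IR in knockout-labelled kidneys were Mrpl42, Mrps36, Mrps21 and Mrpl1. Mrpl42 is a large-subunit protein found only in mitochondria. Its log2 signals were 11.38 in knockout-labelled IR, 12.36 in knockout-labelled sham, 12.22 in wild-type IR and 12.29 in wild-type sham. The knockout-labelled IR array stood apart from the other 3, and IR over sham was -0.98 in the knockout-labelled pair and -0.07 in the wild-type pair. The other probe set of Mrpl42 lay below the floor.

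Mrps36, the dehydrogenase component, had log2 signals of 10.52 in knockout-labelled IR, 11.41 in knockout-labelled sham, 11.10 in wild-type IR and 11.17 in wild-type sham. It was lowest in the knockout-labelled IR array, with IR over sham of -0.89 in the knockout-labelled pair and -0.07 in the wild-type pair. The promoter windows of these 2 genes are shown beside those of the members that were higher after IR. Mrpl42 lies at chr10:95501900-95502199 and Mrps36 at chr13:100744610-100744909, both on the minus strand of GRCm38.p6 (RefSeq). Capitals mark CCAAT on either strand (ATTGG is its reverse complement) and, in Mrpl42, also the YY1 motif AAGATGG.
Mrpl42: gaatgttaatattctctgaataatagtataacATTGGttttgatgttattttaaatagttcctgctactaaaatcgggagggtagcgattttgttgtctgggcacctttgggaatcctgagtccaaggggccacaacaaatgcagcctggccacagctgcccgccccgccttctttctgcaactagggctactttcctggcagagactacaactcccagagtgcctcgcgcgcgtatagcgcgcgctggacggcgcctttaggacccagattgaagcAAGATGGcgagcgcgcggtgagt
Mrps36: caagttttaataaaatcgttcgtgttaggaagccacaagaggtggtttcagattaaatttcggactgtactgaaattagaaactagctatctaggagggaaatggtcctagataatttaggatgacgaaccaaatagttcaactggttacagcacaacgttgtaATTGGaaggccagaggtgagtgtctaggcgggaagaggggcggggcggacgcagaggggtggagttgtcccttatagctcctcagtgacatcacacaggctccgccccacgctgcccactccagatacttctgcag

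Mrps21 and Mrpl1 were less certain. Mrps21, a small-subunit protein with a bacterial counterpart, had log2 signals of 10.61 in knockout-labelled IR, 11.42 in knockout-labelled sham, 11.01 in wild-type IR and 11.37 in wild-type sham. Both IR arrays were lower than both sham arrays, with IR over sham of -0.81 in the knockout-labelled pair and -0.36 in the wild-type pair. Its other probe set, near the floor, gave 0.21 and -0.16 in the same order, so its probe sets differed in sign in the knockout-labelled pair. Mrpl1, which in bacteria forms a mobile stalk of the large subunit, had 7.86 in knockout-labelled IR, 8.63 in knockout-labelled sham, 8.49 in wild-type IR and 8.59 in wild-type sham. Its signal in the knockout-labelled IR array was the lowest of any member in any array. Its other probe set over the floor gave -0.23 in place of -0.78 in the knockout-labelled pair and 0.70 in place of -0.10 in the wild-type pair.

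Where a gene had several probe sets, they did not always tell the same story. Mrpl35, a large-subunit protein, gave 0.18 for IR over sham in the knockout-labelled pair on the probe set read and -1.43 on another. Mrpl15, which had 7 probe sets over the floor, ranged between -0.41 and 1.02 in that pair, and Mrpl50 gave -0.30 and -1.13. Mrps21 was the other of the 4 members with the widest disagreement. Over the 35 members with several probe sets over the floor the SD between probe sets was 0.32 in the knockout-labelled pair, against 0.39 over all such genes of the array.

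The next question was how the genotypes differed after IR. Knockout-labelled over wild type had a median log2 ratio of -0.10, with 55 members lower and 21 higher, against a median of -0.01 over all genes measured. Thus 27.6% of the members were higher, against 48.8% of all genes measured. At 1.5-fold or more 1 member was higher and 3 were lower, that is 5.26% of the members. Of all genes measured 21.0% passed, 10.6% higher and 10.5% lower. Centred on the cytosolic ribosomal protein genes, the median was -0.40, and 0 members stood higher and 21 lower. That centring moved the median of all genes measured to -0.29, and their share past 1.5-fold was not counted with it. Without that centring the higher one was Mrpl33, at 0.86, or 0.48 with the median over its probe sets, and Mrpl42, Mrps16 and Mrpl1 were lower, with -0.85, -0.68 and -0.63. These ratios share the knockout-labelled IR array with the response described above and are not independent of it.

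Between the sham arrays 0 of 76 members passed 1.5-fold, against 3.45% of all genes measured, 1.02% higher and 2.43% lower. The median of knockout-labelled over wild type was 0.09, and 64 members were higher and 12 lower, that is 84.2% higher against 59.1% of all genes measured. The highest difference was 0.49, in Mrps27, and the lowest -0.52, in Mrps6, both named after their values were seen.

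The response to IR was then compared between the genotypes. The difference of the log2 ratios, knockout-labelled minus wild type, had a median of -0.22 over the members and of -0.03 over all genes measured. It was below 0 for 60 of 76 members and for 7449 of the 13808 genes measured. At 1.5-fold or more 2 members were higher and 7 lower, that is 11.8% of the members. Of all genes measured 23.6% passed, 11.1% higher and 12.5% lower. With the centring on cytosolic ribosomal protein genes the median was -0.48, and 1 member stood higher and 23 lower. All genes measured then had a median of -0.25, and their share past 1.5-fold was not counted. With plain _at probe sets, or the median over probe sets, 1 member stood higher. No test of this difference could be made. The members higher were Mrpl33, with 1.03, and Mrps6, with 0.68.

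Of the 7 members lower in the difference, Mrpl42, Mrps36 and Mrpl1 have been described, with -0.91, -0.82 and -0.67. The others, Mrps16, Mrps28, Mrpl49 and Mrps15, had opposite signs in the genotype pairs. Mrps16 is a small-subunit protein with a bacterial counterpart. Its log2 signals were 10.95 in knockout-labelled IR, 11.50 in knockout-labelled sham, 11.63 in wild-type IR and 11.40 in wild-type sham. IR over sham was -0.55 in the knockout-labelled pair and 0.23 in the wild-type pair, so the IR arrays held its lowest and its highest signal. Mrps28, also of the small subunit, had 10.17 in knockout-labelled IR, 10.59 in knockout-labelled sham, 10.64 in wild-type IR and 10.42 in wild-type sham, with ratios of -0.42 and 0.22. The order of its 4 arrays was that of Mrps16.

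Mrpl49, a large-subunit protein found only in mitochondria, had log2 signals of 9.19 in knockout-labelled IR, 9.61 in knockout-labelled sham, 9.70 in wild-type IR and 9.49 in wild-type sham. Its other probe set gave nearly the same ratios, -0.43 in the knockout-labelled pair and 0.18 in the wild-type pair, beside -0.42 and 0.21 on the probe set read. Mrps15, whose bacterial counterpart binds ribosomal RNA early in the assembly of the small subunit, had 9.58 in knockout-labelled IR, 10.002 in knockout-labelled sham, 10.07 in wild-type IR and 9.89 in wild-type sham. Here the probe sets differed: 2 others, one of them near the floor, gave 0.01 and 0.07 in the knockout-labelled pair, where the one read gave -0.42. Each of these 4 genes was thus lower after IR in the knockout-labelled pair and higher in the wild-type pair on the probe set read.

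**Figure D3:**
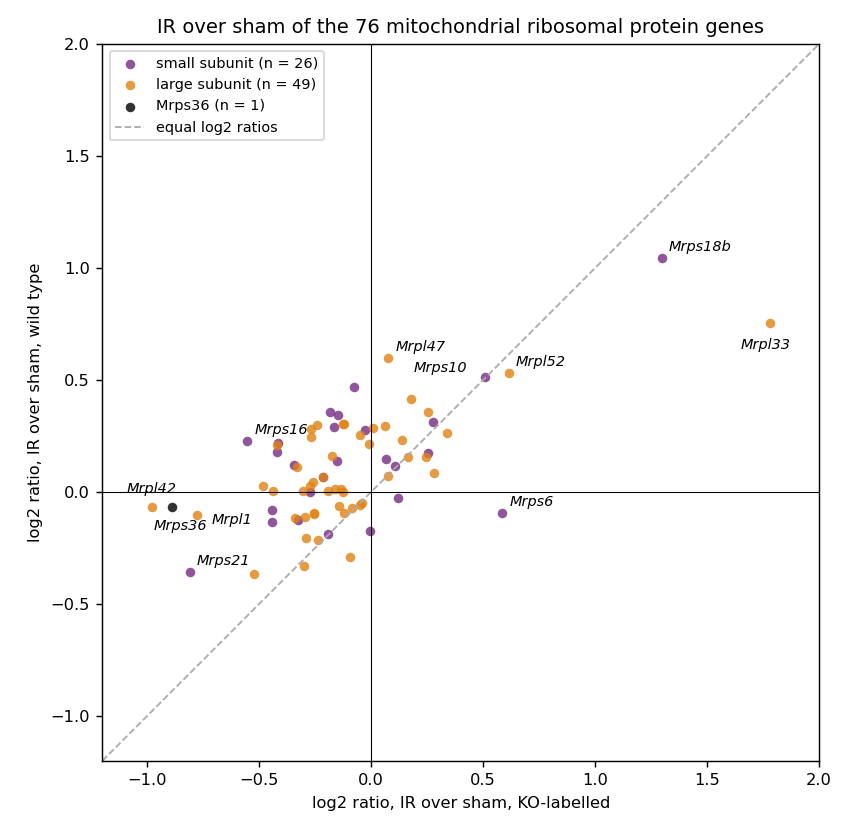
IR over sham of each of the 76 mitochondrial ribosomal protein genes in the knockout-labelled pair (horizontal axis, log2 ratio) and in the wild-type pair (vertical axis, log2 ratio), coloured by subunit. Most points lie above the dashed line of equal ratios, 60 of 76 in all, and Mrps18b and Mrpl33 lie far from the rest at the upper right. Of the 13808 genes measured, which are not drawn, 7449 had the lower ratio in the knockout-labelled pair.

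Across the 76 members the ratios of the knockout-labelled and the wild-type pair had Pearson's r = 0.64 and Spearman's rho = 0.50. Without Mrps18b and Mrpl33 Pearson's r was 0.48. Genes are not independent replicates, and the 2 ratios share no array. Of the members 31 were higher after IR in wild type and lower in the knockout-labelled pair, 19 were higher in both, 24 lower in both and 2 lower in wild type and higher in the knockout-labelled pair. Neither these correlations nor the same split was computed over all genes measured, so neither can be called particular to the members.

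The subunits had similar medians. In the knockout-labelled pair IR over sham was -0.16 over the 26 small-subunit genes and -0.15 over the 49 large-subunit genes, and in the wild-type pair 0.14 and 0.05. Wild-type medians of this size depend on the scaling, as the centring on cytosolic ribosomal proteins shows. Of the large-subunit genes, the 29 classed with bacterial counterparts had a median of -0.24 in the knockout-labelled pair. The 20 classed as found only in mitochondria had -0.07. In the wild-type pair the medians of these classes were both 0.05. Of the small-subunit genes, the 16 with bacterial counterparts had a median of -0.20 in the knockout-labelled pair and the 10 others -0.11. No test of these differences was made. Mrps18a was counted with the 20 and Mrps18b with the 10, although their family descends from a bacterial protein.

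Mitoribosomal proteins that carry other names were read from a separate list. Dap3, a GTP-binding protein of the small subunit, had IR over sham of -0.57 in the knockout-labelled pair and 0.08 in the wild-type pair. Ptcd3, an RNA-binding protein of the small subunit, had -0.58 and 0.23 in the same order. Both stood just inside 1.5-fold in the knockout-labelled pair. Chchd1, of the small subunit, had 0.41 and 0.32. Gadd45gip1, of the large subunit, had 0.33 and 0.37, and was higher in the knockout-labelled arrays than in wild type by 0.72 after IR and by 0.76 after sham.

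Genes that act with the mitoribosome were set beside its proteins. Of the 12 translation factors measured, 0 were higher and 4 lower by 1.5-fold after IR in the knockout-labelled pair, with a median of -0.46, and 0 passed 1.5-fold in the wild-type pair, with a median of 0.04. The 4 were Gfm2, which splits the ribosome for recycling, with -0.98, Guf1, an elongation factor relative, with -0.90, Gfm1, the translocation factor, with -0.72, and Tufm, which brings aminoacyl-tRNA to the ribosome, with -0.61. In the wild-type pair their ratios were -0.24, -0.07, -0.05 and -0.39. The translation factors thus had a lower median than the ribosomal proteins in the knockout-labelled pair, and 11 of 12 of them were lower there. Of all genes measured 7026 of 13600 were lower in that pair. By 1.5-fold 14.6% of all genes were higher and 14.5% lower there, and 12.3% passed in the wild-type pair.

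Assembly factors and enzymes that modify mitochondrial ribosomal RNA had medians of -0.04 in the knockout-labelled pair and 0.20 in the wild-type pair over 26 genes. In the knockout-labelled pair Rcc1l was higher, with 0.80, and the ribosomal RNA methyltransferase Mettl15 and Mterf3 were lower, with -0.78 and -0.67, and 0 passed 1.5-fold in the wild-type pair. Mitochondrial tRNA synthetases and subunits of the GatCAB amidotransferase had medians of -0.03 and 0.13 over 21 genes. Gars, which also serves the cytosol, was higher in the knockout-labelled pair, with 0.89, and Gatb, Yars2 and Rars2 were lower, with -1.24, -0.91 and -0.85. None of these 21 passed 1.5-fold in the wild-type pair. Genes of mitochondrial DNA transcription and maintenance had medians of -0.32 and 0.25 over 12 genes, and Tefm, the transcription elongation factor of mitochondria, was lower in the knockout-labelled pair, with -0.71. Past 1.5-fold in that pair were thus 1 higher and 2 lower of 26, 1 and 3 of 21, and 0 and 1 of 12. Of all genes measured 29.1% passed there, 14.6% higher and 14.5% lower, and 12.3% passed in the wild-type pair. The 13 proteins encoded in mitochondrial DNA were not read under these symbols.

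Among 9 regulators of mitochondrial gene expression 2 were higher after IR in both pairs. Myc, a transcription factor of growth and ribosome synthesis, had IR over sham of 2.57 in the knockout-labelled pair and 2.17 in the wild-type pair. Pprc1, a coactivator related to PGC-1 alpha, had 1.16 and 0.93. Lower in the knockout-labelled pair were Gabpa, the DNA-binding subunit of GABP, with -0.69, Ppargc1a, which encodes PGC-1 alpha, with -0.68, and the nuclear receptor gene Esrra, named after its values were seen, with -0.62. In the wild-type pair these 3 had -0.24, -0.32 and -0.16. The regulators thus lay on both sides of 0 in the knockout-labelled pair, with a median of -0.21. Of all genes measured 29.1% passed 1.5-fold in that pair and 12.3% in the wild-type pair.

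**Figure D4:**
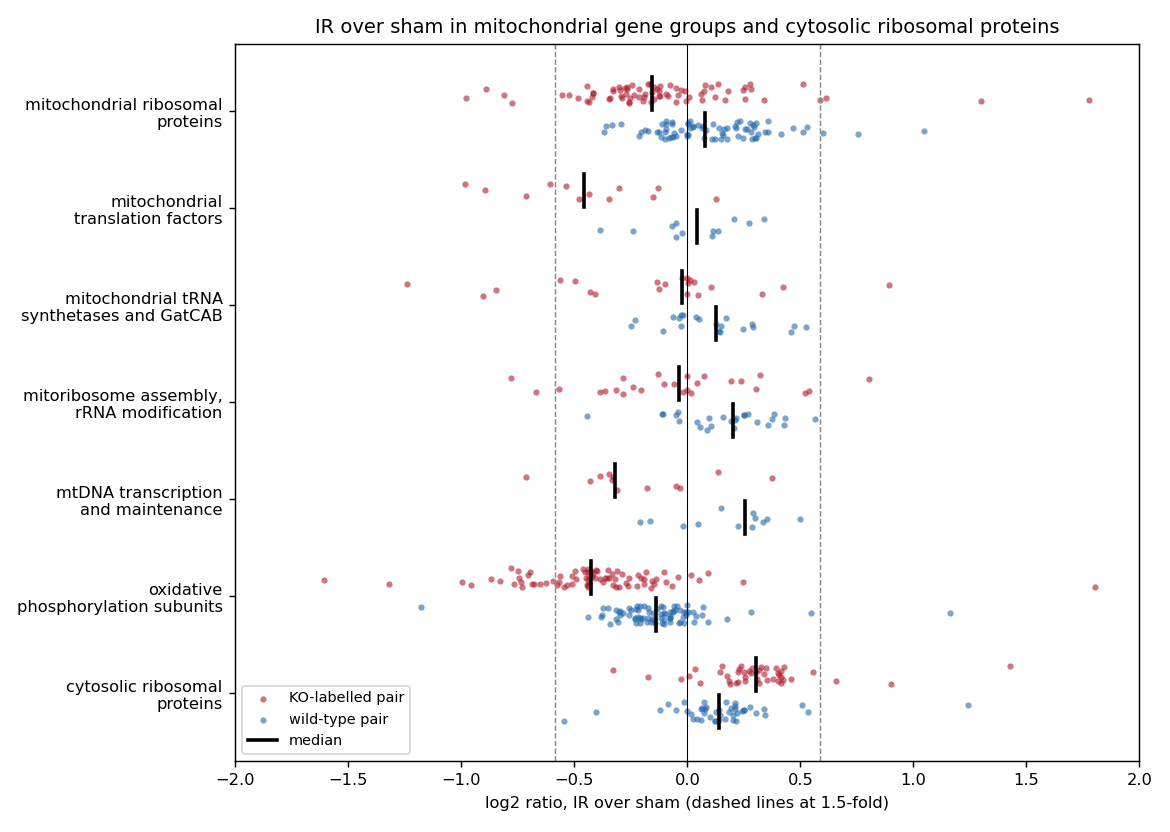
IR over sham (horizontal axis, log2 ratio) of single genes in 7 gene groups, with the knockout-labelled pair above the wild-type pair in each group and the median as a black bar. The mitochondrial ribosomal proteins lie between the oxidative phosphorylation subunits and the cytosolic ribosomal proteins in both pairs, by median; 1 point lies outside the axis.

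Cytosolic ribosomal proteins and the respiratory chain stood on either side of the mitoribosome. The 45 cytosolic ribosomal protein genes measured had a median of 0.31 in the knockout-labelled pair, with 3 higher and 0 lower by 1.5-fold, and of 0.14 in the wild-type pair, with 1 higher and 0 lower. The 80 nuclear genes of oxidative phosphorylation had a median of -0.43 in the knockout-labelled pair, with 1 higher and 19 lower, and of -0.14 in the wild-type pair, with 1 higher and 2 lower. They include Cox8b, also listed as a fat marker, which was the 1 higher, with 1.81, and the lowest in the wild-type pair, with -3.58. Of all genes measured 29.1% passed 1.5-fold in the knockout-labelled pair and 12.3% in the wild-type pair. The medians of the mitochondrial ribosomal proteins, -0.16 and 0.08, lay between those of both families in both pairs. No test of these differences was made. When each array was centred on the median of the cytosolic ribosomal protein genes, the median of the mitochondrial ones was -0.52 in the knockout-labelled pair and -0.03 in the wild-type pair, where the sign changed. The same centring moved the median of all genes to -0.34 and -0.09, so that relative to all genes the members stood at -0.18 and 0.06.

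Cell type markers moved between the arrays beside these genes. The summed linear signal of 8 proximal tubule markers was 36135 in knockout-labelled IR, 78527 in knockout-labelled sham, 64659 in wild-type IR and 76911 in wild-type sham. That of 6 loop and distal tubule markers was 23141, 62467, 46217 and 67058 in the same order. Both were lowest in the knockout-labelled IR array, as were 38 of the 76 members and 38.7% of all genes measured. The 5 injury markers read summed to 47911 in knockout-labelled IR, 1904 in knockout-labelled sham, 26303 in wild-type IR and 2820 in wild-type sham. The 6 fat markers read summed to 9731, 1604, 760 and 7603, with 5, 1, 1 and 6 of them over the floor, and were thus high in knockout-labelled IR and wild-type sham. Of the 4 neutrophil markers read, the 3 over the floor in any array summed to 2091, 181, 335 and 188. The 6 macrophage markers summed to 1365, 3740, 1701 and 3720, the 6 endothelial markers to 1702, 2138, 684 and 2349 and the 5 podocyte markers to 3120, 1661, 463 and 1619. Of the macrophage markers 5 were lower and 1, Cd68, was higher after IR in each pair, while the sums of the endothelial and podocyte markers were lowest in wild-type IR. The 5 collecting duct markers summed to 4761, 6506, 7514 and 7786. The part of these shifts in the values of the ribosomal protein genes was not tested. In whole kidney, fewer cells of a type and less RNA per cell cannot be told apart.

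Promoter sequences were available for 67 of the 76 genes, as 73 windows, some genes having more than 1 annotated start. The letters of 5 motifs were counted on both strands in these windows and in all 32851 windows of the RefSeq table. GABP, CCGGAAG, was in 34.2% of the members' windows, against 15.3% of the windows of genes measured on the array and 8.86% of all windows. NRF1, searched as GCGC, any base and TGCGC, was in 16.4%, against 8.70% and 4.60%, and YY1, AAGATGG, in 17.8%, against 6.65% and 6.34%. These 3 were more frequent in the members' windows than in those of the genes measured. The E-box CACGTG, which Myc can bind, was in 9.59%, against 9.54% and 7.15%, and CCAAT in 39.7%, against 36.8% and 37.4%, so these did not stand apart. The members' E-box windows were 7 windows of 5 genes, since overlapping windows of Mrpl2 hold the same site. The G and C content of the windows was 58.7% in members, 60.0% in genes measured and 52.7% in all. A match of letters describes the sequence and shows no binding.

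**Figure D5:**
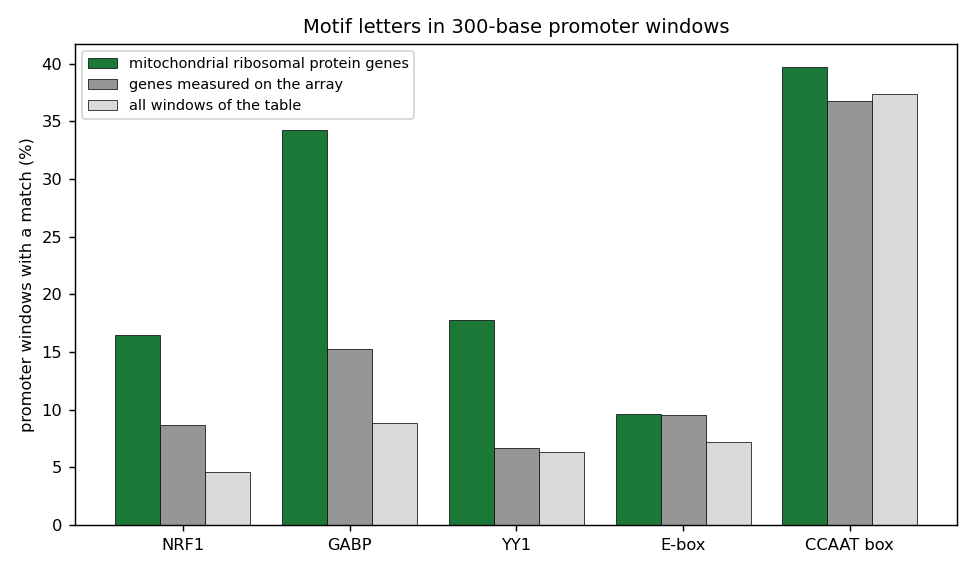
Share of promoter windows of 300 bases (vertical axis, percent) that hold the letters of each of 5 motifs on either strand, for mitochondrial ribosomal protein genes (green), genes measured on the array (dark grey) and all windows of the table (light grey). The GABP, NRF1 and YY1 letters are more frequent in the members, at 34.2%, 16.4% and 17.8%, and the E-box and CCAAT letters are at similar shares in all classes.

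Many of these genes start beside another gene that runs the opposite way. A neighbour starting head to head within 250 bases was found for 20 of 67 members, or 29.9%, against 13.2% of genes measured on the array and 8.74% of all genes of the table. The partners include genes of mitochondrial function: Mrpl43 is paired with Twnk, the helicase of mitochondrial DNA, and Mrps12 with Sars2, the mitochondrial seryl-tRNA synthetase. In the knockout-labelled pair IR over sham was -0.19 for Mrpl43 and -0.33 for Twnk, and in the wild-type pair 0.00 and 0.15. For Mrps12 and Sars2 the ratios were -0.01 and 0.42 in the knockout-labelled pair and -0.17 and -0.03 in the wild-type pair. Partners thus did not always lie on the same side of 0. Mrpl49, described above, is paired with Fau, which encodes a cytosolic ribosomal protein fused to a ubiquitin-like one, and Fau had 0.19 in the knockout-labelled pair and -0.03 in the wild-type pair, the opposite signs of Mrpl49.

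Mrpl46 and Mrps11, of the large and the small subunit, start 42 bases apart and face away from each other, the only such pair in which both partners are members. Mrpl46 had IR over sham of -0.01 in the knockout-labelled pair and 0.21 in the wild-type pair, and Mrps11 had -0.19 in both. The promoter window of Mrps11, at chr7:78782881-78783180 on the plus strand of GRCm38.p6 (RefSeq), is shown because it holds the starts of both genes. Only the 42 bases between the starts lie before both genes. The bases printed before those 42 lie past the start of Mrpl46, within that gene. Capitals mark the reverse complement of the YY1 motif AAGATGG, at -106 to -100 from the start of Mrps11. These letters lie past the start of Mrpl46, and the window of Mrpl46 itself held no match to the motifs searched.
Mrps11: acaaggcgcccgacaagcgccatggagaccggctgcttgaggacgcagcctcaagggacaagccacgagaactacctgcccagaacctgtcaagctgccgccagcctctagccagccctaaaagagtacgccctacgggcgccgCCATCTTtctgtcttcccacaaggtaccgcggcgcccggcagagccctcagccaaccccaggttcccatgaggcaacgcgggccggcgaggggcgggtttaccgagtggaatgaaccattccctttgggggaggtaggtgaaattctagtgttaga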

How the data were processed

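Kidney RNA of 4 groups was measured on 1 array each, pooled from 3 mice per group. Groups were taken from the genotype and treatment labels. Per the labels' protocols, total RNA was extracted with Trizol and labelled as biotinylated cRNA for Affymetrix 3' arrays. The authors deposited log2 signals for 45037 probe sets, between 2.51 and 15.0; the log2 scale was read from the values. The submitters' processing notes name MAS5 without a version, and the scaling between arrays is not given in the sources used here.

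Probe sets were matched to genes by the platform annotation, in which 34945 list 1 symbol, 932 several, and 9160 are not listed. All 76 symbols matched a RefSeq gene by Entrez identifier. A gene was read from its probe set with the highest mean signal, those ending in _x_at last. Signals under the 40th percentile of all signals (linear 52.8) were set to that floor, and a gene was measured in a comparison if over the floor in 1 or more of its arrays. Log2 ratios were described by medians and by counts past 1.5-fold and 2-fold beside those of all genes measured. With 1 array per group no test and no p-value could be given. Named members are those past 1.5-fold in any of the 5 comparisons, where 12 or fewer passed in a direction, the 4 whose probe sets disagree most, the 5 steadiest and the Mrps18 family. From each other list at most the 4 genes with the largest ratio are named, except that Esrra was added after its values were seen. The members and lists were chosen with earlier results of these data known. The set of genes with similar signal was added after seeing the data. Alternatives were the probe set rule, the floor, the scaling and the control array. Python 3.11.15, numpy 2.4.6 and pandas 2.3.3 were used, and the ratio computation was tested on simulated data.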

Additional observations from a re-analysis of the deposited data

Results flagged for a closer look

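The median IR response of the mitochondrial ribosomal protein genes lay below 0 in the knockout-labelled pair and above 0 in the wild-type pair, and the median of the differences between the responses was -0.22. With the arrays centred on cytosolic ribosomal protein genes both medians lay below 0. The median of the differences was then -0.48, against -0.25 over all genes measured. The same opposite signs were seen in single genes that passed 1.5-fold in the difference, knockout-labelled minus wild type: Mrps16 with -0.78, Mrps28 with -0.64, Mrpl49 with -0.63 and Mrps15 with -0.60. Mrps6 had the opposite pattern, higher after IR in the knockout-labelled pair and lower in the wild-type pair, with a difference of 0.68. On the other probe set of Mrps6 the difference was 0.38, inside 1.5-fold, and IR over sham in the knockout-labelled pair was 0.08. On another probe set of Mrps15 the difference was -0.19. These differences were not tested, since each group had 1 array. The same limit means that no array could be called an outlier within its group.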

How the results depend on the processing

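No paired analysis was possible because each group had 1 array, and for the same reason no replicate could be left out. Of 111 summary values under the alternatives, 97 stayed within the tolerance (a log2 change of 0.1 for medians, 1.5 times for counts), 13 moved and 1 changed sign. The tolerance of 0.1 is larger in size than the medians of 0.078, 0.095 and -0.098, so staying within it says little about these. Centring each array on the cytosolic ribosomal protein genes moved the most. The median became -0.52 for IR over sham in the knockout-labelled pair, -0.030 in the wild-type pair, where it changed sign, -0.40 for knockout-labelled over wild type after IR and -0.48 for the difference of the responses. With that centring 2 members were higher and 30 lower in the knockout-labelled pair, 0 higher and 21 lower in knockout-labelled over wild type after IR, and 1 higher and 23 lower in the difference. The centring also moved the medians of all genes measured, to -0.34, -0.29 and -0.25 in the same order. With the sham array of the other genotype as control, the median in the knockout-labelled pair was -0.044, with 3 members higher and 4 lower. All genes measured then had a median of 0.0003, and their share past 1.5-fold was not counted. With the median over the probe sets of a gene, 0 members were higher in knockout-labelled over wild type after IR and 1 was higher in the difference, and with plain _at probe sets alone 1 was higher in the difference. Of 835 values of single named genes, 48 changed sign. In 47 of these the ratio was inside 1.5-fold as reported, among them IR over sham of Mrpl35 in the knockout-labelled pair, -1.43 on plain _at probe sets, and of Mrpl1 in wild type, 0.70 with the median over probe sets. The other was Mrpl47 in wild type, past 1.5-fold as reported and -0.042 with the median over probe sets. Single arrays of pooled RNA carry no measure of the spread between mice, probe sets of a gene can respond unequally, and the scaling by the authors is unknown, so small ratios rest on that scaling.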
